A study of Homo sapiens with 18 samples.

Results

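The 53 genes described here are developmental homeobox genes outside the HOX clusters, namely 11 of the NK class, 8 LIM homeobox genes, 6 Iroquois genes, 3 sine oculis genes (SIX2, SIX3 and SIX6), 6 Distal-less genes, 6 of the OTX, EMX and EN families, 4 of the MSX and BARX families, 5 paired-like genes and 4 of the TLX and VAX families. They were chosen by name from 20136 protein-coding genes, and for each the region from 1000 bp before to 1000 bp after its annotated 5′ end on GRCh37 was analysed and is called the promoter below. DNA methylation was measured in 3 established cancer cell lines, HCT15 from a colorectal carcinoma and DU145 and PC3 from prostate carcinomas, all untreated and grown in the medium recommended for them. Reduced representation bisulfite sequencing (RRBS), which reads the methylation of single CpGs in fragments cut at CCGG sites, was done on 1 library per line. In MBD-seq, methylated fragments are captured with a methyl-binding domain protein and sequenced, and DNA of each line was captured once with each of 5 commercial kits (MethylMagnet, MethylCollector, MethylCollector Ultra, MethylCap and MethylMiner), giving 15 libraries.

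Homeobox genes encode transcription factors that bind DNA through a homeodomain and fix the identity of body regions, organs and neurons in the embryo. In cells that do not use them, their CpG-rich promoters are classic targets of the Polycomb group proteins, which keep genes silent through marks on histones rather than on DNA. In many tumours, CpG islands of this kind are known to gain DNA methylation, and this has been described for colorectal and for prostate cancers.

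The sequences below show the stretches that the results turn on. They were taken from GRCh37, are written 5′ to 3′ on the strand of the gene, and have each CpG in capitals. IRX2, LHX6 and VAX2 had the largest differences between the lines, while TLX3 had the highest and DLX1 the lowest mean over the CpGs that the 3 lines share. The LHX6 stretch (chr9:124991041-124991070, minus strand) lies in an untranslated part of an LHX6 exon. The first IRX2 stretch (chr5:2751294-2751443, minus strand) is coding sequence, and the second (chr5:2752384-2752533, minus strand) lies upstream of the gene in an exon of the divergent transcript IRX2-DT. The VAX2 stretch (chr2:71128485-71128634, plus strand) overlaps no annotated exon. The TLX3 stretch (chr5:170736447-170736596, plus strand) is coding sequence that overlaps an exon of a further annotated gene, and the DLX1 stretch (chr2:172949855-172950004, plus strand) overlaps no annotated exon.
LHX6: CGgCGcagctctcCGCGctgCGCGccCGct
IRX2, coding: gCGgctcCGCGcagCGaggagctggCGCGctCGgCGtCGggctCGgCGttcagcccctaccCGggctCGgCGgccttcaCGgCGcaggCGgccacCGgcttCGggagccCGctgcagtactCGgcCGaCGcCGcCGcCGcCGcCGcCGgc
IRX2, upstream: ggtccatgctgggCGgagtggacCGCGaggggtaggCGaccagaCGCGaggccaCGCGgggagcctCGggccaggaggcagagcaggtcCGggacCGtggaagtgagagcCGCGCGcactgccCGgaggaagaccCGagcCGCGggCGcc
VAX2: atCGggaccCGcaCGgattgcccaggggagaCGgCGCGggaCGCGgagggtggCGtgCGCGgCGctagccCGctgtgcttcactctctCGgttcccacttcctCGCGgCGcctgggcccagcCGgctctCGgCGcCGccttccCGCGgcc
TLX3: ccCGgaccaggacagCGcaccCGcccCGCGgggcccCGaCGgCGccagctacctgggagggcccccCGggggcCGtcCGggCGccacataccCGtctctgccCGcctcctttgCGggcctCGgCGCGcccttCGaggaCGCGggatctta
DLX1: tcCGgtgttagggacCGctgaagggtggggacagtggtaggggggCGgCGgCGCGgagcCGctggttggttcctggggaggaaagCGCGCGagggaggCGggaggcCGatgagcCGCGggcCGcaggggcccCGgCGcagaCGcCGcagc

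CpGs inside a CCGG site, the site of the enzyme used in RRBS, behaved differently from the other CpGs and touch each RRBS mean given here. Within 300 bp of the 5′ ends of the ribosomal protein genes, which are active in dividing cells, CpGs outside CCGG had a median methylation of 0% in the 3 lines. CpGs inside CCGG had a median of 50% in HCT15, 50% in DU145 and 51.0% in PC3. In the homeobox promoters, 18.3% of the covered CpGs of HCT15, 18.3% of those of DU145 and 18.1% of those of PC3 lay inside CCGG. A promoter whose other CpGs were unmethylated therefore still had a mean near 10%, as OTX1 shows with 10.1%, 9.90% and 10.2% over all CpGs and 0.900%, 0.535% and 0.906% outside CCGG in HCT15, DU145 and PC3. The source of the values inside CCGG was not tested. Means outside CCGG are given beside the main values for the lowest promoters and some others. Where they are not given, values inside CCGG are part of the mean.

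The depth of the libraries limits each assay in its own way. The RRBS files held 72638326 reads for HCT15, 130667913 for DU145 and 93623967 for PC3 at the CpGs used, and the median coverage of the homeobox CpGs with at least 10 reads was 25, 57 and 32. The MBD-seq libraries held 10040 to 7344098 fragments after removal of duplicates. In DU145, 3 of the 5 libraries had 10040, 29613 and 30336 fragments, of which 23, 25 and 35 overlapped any of the 53 promoters. At CpGs methylated in a single line by RRBS, depth was highest over the CpGs of the labelled line in 12 of the 15 libraries, and the 3 exceptions were the MethylMiner libraries. MethylMiner was left out of the tests between lines and its values are given beside them.

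The homeobox promoters were more methylated in HCT15 than in the prostate lines, and more methylated than other promoters in each line. RRBS covered at least 5 CpGs with at least 10 reads in 50 promoters in HCT15, 50 in DU145 and 51 in PC3. The median of the promoter means was 86.3% in HCT15 (quartiles 39.0% and 92.1%), 38.0% in DU145 (17.3% and 65.2%) and 41.1% in PC3 (21.8% and 66.4%). The medians over all protein-coding promoters were 16.8%, 16.9% and 16.1%. Outside CCGG, the homeobox medians were 84.2%, 30.5% and 32.5%, beside 6.56%, 6.40% and 6.13% over all promoters. A mean of at least 50% was reached by 35 of 50 homeobox promoters in HCT15, 19 of 50 in DU145 and 18 of 51 in PC3, against 25.965%, 18.1% and 16.7% of all promoters. With 1 RRBS library per line, these are descriptions of 3 libraries with no test between the lines.

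Several sequence properties were shared by the promoters. They were not used directly to choose the genes, but genes of this kind are known for CpG-rich promoters, as stated above. CpG-rich sequence, with a GC content of at least 55% and an observed to expected CpG ratio of at least 0.6 over the window, was present in 42 of the 53 (79.2%) and in 35.5% of all protein-coding promoters. The median window held 135 CpGs, against 90 over all promoters. CpG-rich promoters as a whole had low medians of 13.8%, 14.1% and 13.4% in HCT15, DU145 and PC3. Other lists gave medians, in the same order of lines, of 33.1%, 57.9% and 41.2% for 39 HOX genes, 14.5%, 15.3% and 17.4% for 11 TALE homeobox genes outside the Iroquois family, 15.6%, 14.7% and 15.2% for 30 genes of the Polycomb machinery, and 13.7%, 16.7% and 15.5% for 72 ribosomal protein genes. The HOX genes had their highest median in DU145, whereas the 53 genes described here had it in HCT15.

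**Figure D1:**
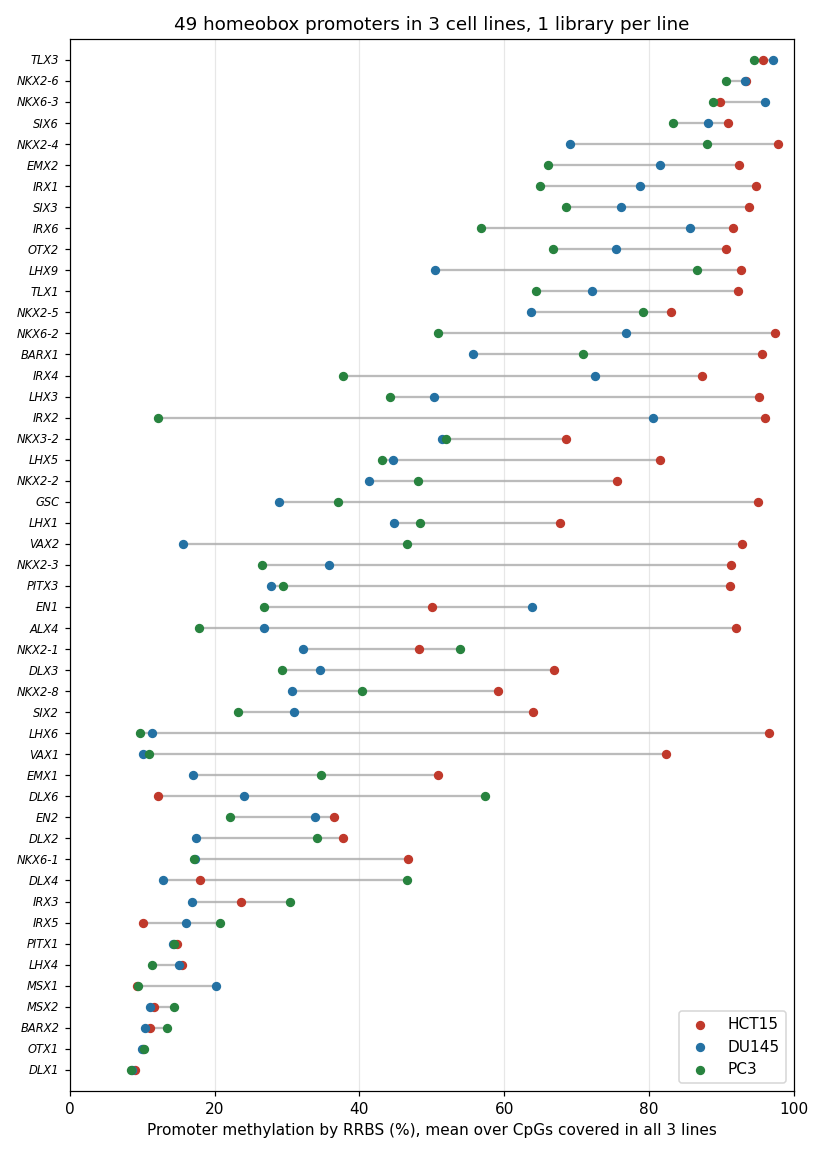
Promoter methylation by RRBS (%, x axis) of the 49 homeobox genes with at least 5 CpGs covered by 10 or more reads in all 3 lines, ordered by their mean over the lines. Each point is 1 library and the grey line joins the lowest and the highest line. HCT15 is the highest line in 37 of the 49 genes, and LHX6 and IRX2 span the widest ranges, 87.0 and 83.9 percentage points.

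Among the 49 promoters with at least 5 CpGs covered in all 3 lines, HCT15 was the highest line in 37, PC3 in 8 and DU145 in 4. PC3 was the lowest in 25, DU145 in 21 and HCT15 in 3. The remaining members were not ranked, since LHX2 and LHX8 had no covered CpG and DLX5 and ALX1 shared 4 CpGs. Compared over the CpGs that both lines covered, 18 of 49 homeobox promoters were at least 25 percentage points higher in HCT15 than in DU145 and 0 were lower by as much. Of all promoters, 12.3% and 1.56% were. Against PC3, HCT15 was higher by at least 25 points in 22 of 50 promoters and lower in 2, beside 12.5% and 1.61% of all promoters. Between DU145 and PC3, 5 of 50 were higher in DU145 and 6 in PC3, beside 4.4% and 3.25% of all promoters. The median difference over the members was 17.1 points for HCT15 minus DU145, 19.9 for HCT15 minus PC3 and 0.986 for DU145 minus PC3. The medians over all promoters were −0.149, 0.0245 and 0.135.

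The same direction held for single CpGs. Fisher's exact test on the methylated and unmethylated reads of 2 libraries, with Benjamini-Hochberg adjustment over all CpGs covered in both, called 777 of 2525 homeobox CpGs higher in HCT15 than in DU145 (30.8%) and 81 lower (3.21%). Over the genome, 7.84% of CpGs were called higher in HCT15 and 8.63% higher in DU145. Against PC3, 867 of 2611 homeobox CpGs were called higher in HCT15 (33.2%) and 104 lower (3.98%), beside 12.1% and 4.41% of all CpGs. Between DU145 and PC3, 487 of 2644 were called higher in DU145 (18.4%) and 383 higher in PC3 (14.5%), beside 14.4% and 4.27% of all CpGs. Neighbouring CpGs share reads, and the test compares 2 libraries rather than 2 lines. With more reads, the test can call smaller differences, and the homeobox CpGs were covered more deeply. Among CpGs with at least 10 reads, median coverage was 25 against 23 over all CpGs in HCT15, 57 against 33 in DU145 and 32 against 26 in PC3. How far coverage raised the homeobox shares was not tested.

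**Figure D2:**
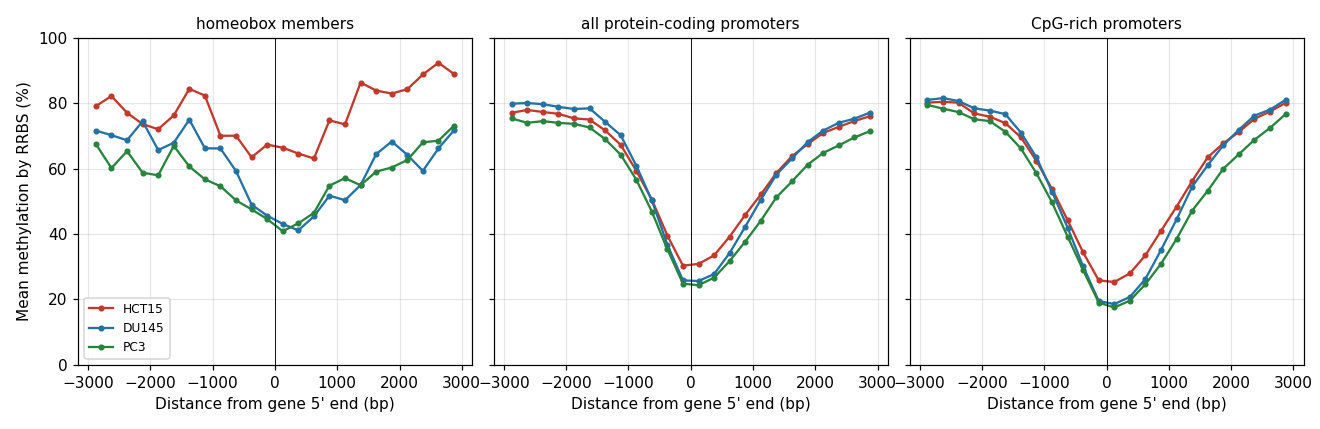
Mean methylation by RRBS (%, y axis) in bins of 250 bp by distance from the 5′ end of the gene (bp, x axis) for the homeobox members, all protein-coding promoters and CpG-rich promoters, with 1 coloured line per cell line. Over the 250 bp after the 5′ end, the homeobox mean is 66.4% in HCT15, 43.1% in DU145 and 40.9% in PC3. The dip seen around the 5′ ends of other promoters is shallow in HCT15.

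In the 250 bp after the 5′ end, the mean over the homeobox genes with a covered CpG was 66.4% in HCT15 (38 genes), 43.1% in DU145 (37 genes) and 40.9% in PC3 (39 genes). From 1250 to 1499 bp downstream the means were 86.3%, 55.0% and 54.9%. Of single homeobox CpGs in HCT15, 52.4% were at least 80% methylated and 26.3% at most 20%, beside 54.1% and 23.3% of all CpGs covered. In DU145 the shares were 24.5% and 39.2%, beside 56.7% and 21.3%. In PC3 they were 25.9% and 45.1%, beside 45.4% and 26.5%. Homeobox CpGs in HCT15 thus had shares near those of all CpGs, and in the prostate lines fewer of them were highly methylated.

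LHX6, a LIM homeobox gene needed by interneurons of the cerebral cortex, had the widest range. Its mean over 13 shared CpGs was 96.6% in HCT15, 11.3% in DU145 and 9.64% in PC3. Outside CCGG the values were 96.3%, 4.78% and 2.30%. The CpGs lie between 771 and 881 bp downstream of the gene's 5′ end, and the 7 CpGs in capitals in the LHX6 stretch above averaged 98.3%, 3.38% and 0.752%. By Fisher's exact test 12 of the 13 CpGs were called higher in HCT15 than in each prostate line. In the 4 kits other than MethylMiner, MBD-seq gave 2 (MethylMagnet), 3 (MethylCollector), 9 (MethylCollector Ultra) and 9 (MethylCap) fragments in HCT15. DU145 had 0, 1, 0 and 3 and PC3 had 0, 0, 0 and 1, in the same order of kits. The difference between HCT15 and PC3 was a log2 fold of 3.58 (SE 0.89, adjusted p = 0.00138 by edgeR over the 4 kits). The call was lost in 6 of 13 alternative fits, among them those without MethylCollector Ultra (log2 fold 2.71, adjusted p = 0.131) and with TMM scaling (2.83, adjusted p = 0.0581). HCT15 against DU145 gave −0.31 (SE 0.75, adjusted p = 0.905), although RRBS differed widely, and DU145 against PC3 gave 3.88 (SE 1.25, adjusted p = 0.0866), although RRBS was low in both. The PC3 value rests on 1 fragment, and the ratio of pooled CPM (fragments scaled to the total of the libraries) was 8.78 with a 95% interval from counting of 1.43 to 361. Pooled ratios here and below add the 4 kits together and, unlike the fit, do not pair libraries by kit. The mix of kits differed between the lines. MethylCap gave 3886402 of the 4864802 pooled fragments in HCT15, 823586 of 893575 in DU145 and 950278 of 1856088 in PC3. Pooled ratios are therefore not a check on the fit. MethylMiner gave 14, 9 and 9 fragments in HCT15, DU145 and PC3.

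Among the other LIM homeobox genes, LHX3, which acts in the pituitary and in motor neurons, had 95.1% in HCT15, 50.2% in DU145 and 44.2% in PC3. LHX5 had 81.5%, 44.6% and 43.2% and LHX1, needed for head and kidney formation, 67.6%, 44.8% and 48.4%. Around the canonical start of LHX1, 688 bp away, the means were 95.7%, 52.6% and 59.9% over the CpGs covered in each line. LHX4, a close relative of LHX3, was at 15.5%, 15.1% and 11.3%, and outside CCGG at 8.39%, 7.29% and 3.11%. LHX9, which acts in the gonads, had 92.8%, 50.4% and 86.6%. Its canonical transcript starts 5470 bp away, where the means were 30.5%, 42.9% and 62.2%. These are over the 45, 41 and 20 CpGs covered in each line, not over shared CpGs. The order of the lines differed between the starts, and the part played by unlike sets of CpGs was not tested. LHX2 and LHX8 had no covered CpG around the gene's 5′ end. Around the start of the canonical transcript, 10098 bp away, LHX2 had 92.8%, 18.4% and 55.9%, and for LHX8, 5954 bp away, the values were 78.2%, 65.5% and 48.0%. Both are means over the CpGs covered in each line.

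The Iroquois genes, which pattern the nervous system, heart and limbs, lie in 2 clusters on chromosomes 5 and 16. IRX2 separated PC3 from the other lines. Its mean over 83 shared CpGs was 96.0% in HCT15, 80.5% in DU145 and 12.1% in PC3. Outside CCGG the means were 96.3%, 80.8% and 3.36%. In the coding stretch printed above, the 21 covered CpGs outside CCGG averaged 97.9%, 90.7% and 1.65%, and the highest of them in PC3 was 4.65%. In the upstream stretch, 13 such CpGs averaged 95.9%, 70.1% and 5.48%, and in DU145 they ranged from 41.3% to 98.2%. PC3 was low in both stretches, whereas DU145 was lower upstream than in the coding stretch. Exceptions in PC3 outside CCGG were a CpG 23 bp upstream of the 5′ end, at 77.6%, and a CpG of the upstream stretch, at 29.7%. Fisher's exact test called 79 of 83 CpGs higher in HCT15 than in PC3, and 86 of 93 higher in DU145 than in PC3.

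MBD-seq found few IRX2 fragments in PC3. MethylMagnet, MethylCollector, MethylCollector Ultra and MethylCap gave 8, 19, 17 and 24 in HCT15, 3, 4, 5 and 17 in DU145 and 1, 0, 0 and 0 in PC3. In CPM of each library, these are 6.18 to 133 in HCT15, 20.6 to 299 in DU145 and 0 to 4.13 in PC3, so the PC3 libraries did not overlap those of the other lines. The log2 fold was 5.46 for HCT15 over PC3 (SE 0.81, adjusted p = 1.14e-08) and 7.09 for DU145 over PC3 (SE 0.85, adjusted p = 5.65e-13), and both calls were kept in 13 of 13 alternative fits. As PC3 had 1 fragment, the size is uncertain, and it also depended on the fit. For HCT15 over PC3, the log2 fold was 3.29 with all 15 libraries, 2.76 with limma and 1.54 with windows of 2000 bp. With windows of 500 bp it was 6.02. The ratio of pooled CPM was 25.9 for HCT15 over PC3 (95% interval from counting 4.50 to 1040) and 60.2 for DU145 over PC3 (9.99 to 2460). HCT15 against DU145 gave a log2 fold of −1.64 (SE 0.47, adjusted p = 0.0501). MethylMiner gave 13, 7 and 4 fragments in HCT15, DU145 and PC3.

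IRX1 and IRX4 lie 844155 and 864441 bp from IRX2 on either side. IRX4, which acts in the ventricles of the heart, had 87.4% in HCT15, 72.6% in DU145 and 37.7% in PC3. Around its canonical transcript start, 4311 bp away, DU145 was at 44.2% and the other lines at 90.5% and 32.4%, over the CpGs covered in each line. MBD-seq gave 2, 8, 18 and 31 IRX4 fragments in HCT15 and 4, 0, 2 and 3 in PC3, in the order of kits used for IRX2, a log2 fold of 1.90 (SE 0.58, adjusted p = 0.00958). The call was lost in 6 of 13 alternative fits, among them those without MethylCollector Ultra (log2 fold 1.43, adjusted p = 0.262), with TMM (1.28, adjusted p = 0.243) and without the block by kit (1.94, adjusted p = 0.205). IRX1 had 94.7%, 78.8% and 65.0% and was not uniform in PC3, where CpGs outside CCGG averaged 40.7% upstream, 94.0% in the first 500 bp and 96.3% in the next 500 bp.

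In the cluster on chromosome 16, IRX3 and IRX5 were low and IRX6 was high. IRX3 had 23.7%, 16.9% and 30.5% in HCT15, DU145 and PC3, and IRX5 10.1%, 16.0% and 20.8%, or 1.53%, 7.86% and 13.4% outside CCGG. IRX6, which lies 393338 bp from IRX5, had 91.7%, 85.6% and 56.7%. IRX6 was also called higher in HCT15 than in PC3 by MBD-seq (log2 fold 1.61, SE 0.58, adjusted p = 0.0357). The call was lost in 9 of 13 alternative fits, among them those without MethylMagnet (adjusted p = 0.0598) or MethylCollector Ultra (0.488), with TMM (0.299), with DESeq2 (0.253) and with limma (0.407). MethylMiner gave 11, 10 and 12 fragments for IRX4 and 16, 7 and 4 for IRX6 in HCT15, DU145 and PC3.

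VAX1 and VAX2, which pattern the ventral eye, were methylated in HCT15 and low in DU145. VAX1 had 82.4%, 10.1% and 10.9% over 22 CpGs in HCT15, DU145 and PC3, or 80.2%, 4.05% and 5.50% outside CCGG. MethylMagnet, MethylCollector, MethylCollector Ultra and MethylCap gave 4, 20, 21 and 31 VAX1 fragments in HCT15, 1, 0, 0 and 2 in DU145 and 1, 0, 0 and 0 in PC3. HCT15 exceeded PC3 by a log2 fold of 5.31 (SE 0.82, adjusted p = 3.81e-08), a call kept in 13 of 13 alternative fits. The pooled ratio was 29.0 with an interval from 5.05 to 1160. HCT15 against DU145 gave a log2 fold of 1.76 (SE 0.80, adjusted p = 0.251). EMX2, 404144 bp from VAX1 on chromosome 10, was methylated in the 3 lines, with 92.4%, 81.5% and 66.0%. MethylMiner gave 12, 10 and 4 VAX1 fragments.

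VAX2 showed a change along the window that differed between the prostate lines. Its mean over 73 shared CpGs was 92.8% in HCT15, 15.7% in DU145 and 46.6% in PC3. In the first 500 bp, 24 CpGs outside CCGG averaged 96.0%, 1.05% and 11.2%. From 500 to 1000 bp, 21 such CpGs averaged 94.8%, 3.43% and 92.9%. The 17 CpGs outside CCGG of the VAX2 stretch above, which lies in the latter interval, averaged 96.3%, 2.71% and 92.3%. PC3 was thus near DU145 in the first interval and near HCT15 in the second. MBD-seq gave 1, 18, 21 and 58 fragments in HCT15, 0, 0, 0 and 1 in DU145 and 10, 1, 9 and 9 in PC3. HCT15 exceeded DU145 by a log2 fold of 3.79 (SE 1.00, adjusted p = 0.0319), the one call among the members in this pair. It was lost in 9 of 13 alternative fits, among them those without MethylCollector (adjusted p = 0.121), MethylCollector Ultra (0.143) or MethylCap (0.766). The pooled ratio was 18.0 with an interval from 3.16 to 718. MethylMiner gave 26, 9 and 5 fragments.

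**Figure D3:**
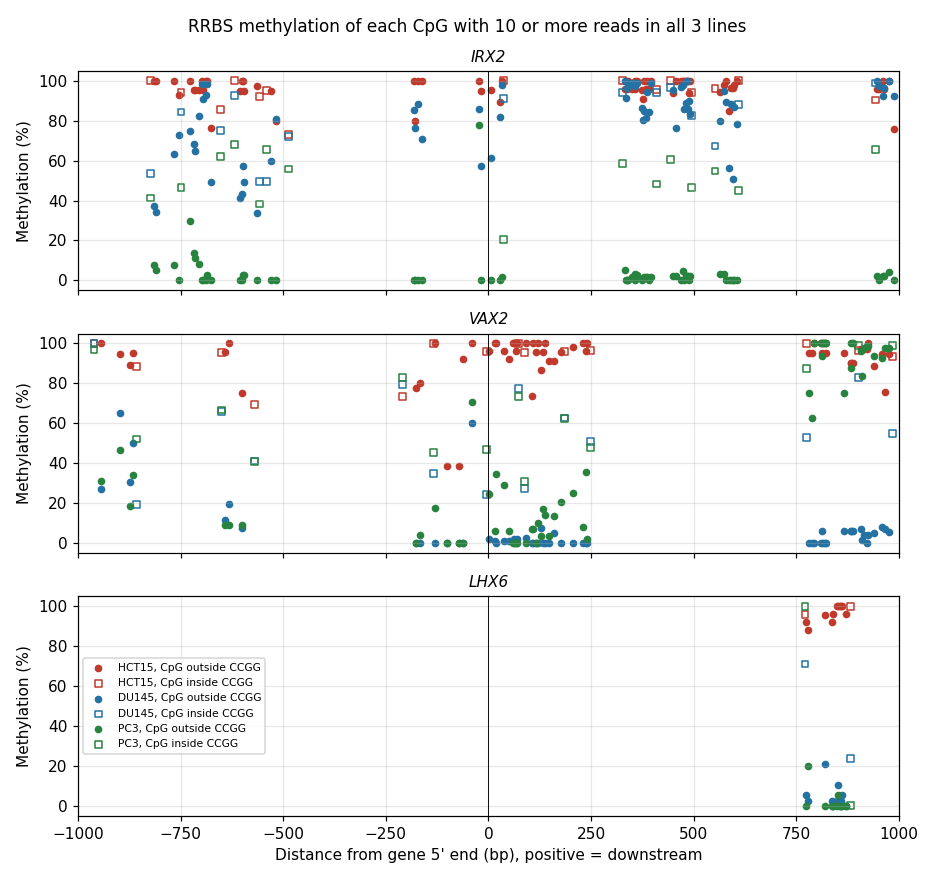
Methylation by RRBS (%, y axis) of each CpG with 10 or more reads in all 3 lines, by distance from the 5′ end of IRX2, VAX2 and LHX6 (bp, x axis). Filled points are CpGs outside CCGG and open squares CpGs inside CCGG. PC3 averages 3.36% over IRX2 outside CCGG, with 1 CpG just upstream of the 5′ end at 77.6%, and in VAX2 it changes from 11.2% in the first 500 bp to 92.9% in the next.

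The paired-like genes gave 3 further members with wide ranges. ALX4, which acts in skull and limb development, had 92.1%, 26.8% and 17.8% over 44 CpGs in HCT15, DU145 and PC3. Outside CCGG, ALX4 had 92.3%, 21.6% and 11.2%. MethylMagnet, MethylCollector, MethylCollector Ultra and MethylCap gave 1, 18, 12 and 35 ALX4 fragments in HCT15, 0, 0, 0 and 1 in DU145 and 2, 1, 1 and 0 in PC3. The log2 fold of HCT15 over PC3 was 2.89 (SE 0.67, adjusted p = 3.43e-04), and over DU145 3.12 (SE 1.03, adjusted p = 0.108). The call against PC3 was lost with all 15 libraries, with DESeq2 and with limma. MethylMiner gave 13, 4 and 6 ALX4 fragments. GSC, a gene of the early embryonic organizer, had 94.99%, 28.9% and 37.02%. PITX3, needed by dopaminergic neurons of the midbrain and by the lens, had 91.2%, 27.8% and 29.4%. In PITX3 the difference did not extend to 4 CpGs from 500 to 1000 bp downstream, which were at 98.5%, 98.0% and 100%, while 20 upstream CpGs outside CCGG were at 91.6%, 2.22% and 8.24%. GSC and PITX3 were not called in MBD-seq between any 2 lines, and HCT15 against DU145 gave log2 folds of −0.26 (SE 0.59) and −0.42 (SE 0.57). PITX1, of the same family as PITX3, was at 14.8%, 14.2% and 14.3%, or 5.43%, 5.28% and 5.55% outside CCGG. ALX1 had 6 covered CpGs in DU145 with a mean of 43.0% and 12 in PC3 with 82.7%.

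In the NK class, 9 of 11 promoters were at 50% or more in HCT15, 5 in DU145 and 4 in PC3. NKX6-2, which acts in oligodendrocytes, had 97.5%, 76.8% and 50.8%. In PC3 its CpGs outside CCGG were at 33.4% upstream, 22.6% in the first 500 bp and 78.4% beyond. MethylMagnet, MethylCollector, MethylCollector Ultra and MethylCap gave 17, 24, 28 and 39 NKX6-2 fragments in HCT15, 2, 0, 1 and 14 in DU145 and 9, 1, 5 and 3 in PC3. HCT15 exceeded PC3 by a log2 fold of 2.46 (SE 0.45, adjusted p = 4.77e-06), a call lost without kit as a block (adjusted p = 0.0870), with DESeq2 and with limma. DU145 exceeded PC3 by 2.36 (SE 0.64, adjusted p = 0.0238), a call lost without MethylMagnet (adjusted p = 0.0777), MethylCollector Ultra (0.108) or MethylCap (0.886) and, with TMM scaling, at a log2 fold of 1.01 (adjusted p = 0.587). For HCT15 over PC3, the ratio of pooled CPM was 2.29, with an interval from counting of 1.38 to 4.01. For DU145 over PC3 it was 1.96, with an interval from 0.95 to 4.03 that included equal CPM. Both pooled ratios were smaller than the folds of the fit, which pairs libraries by kit as the pooled ratios do not. MethylMiner gave 6, 5 and 4 NKX6-2 fragments. NKX2-3, needed for the spleen and the gut wall, had 91.4%, 35.8% and 26.5%, or 94.2%, 20.1% and 8.45% outside CCGG. NKX2-4 had 97.8%, 69.0% and 88.0%, and 39 of 73 CpGs were called higher in PC3 than in DU145. NKX2-5, a heart gene, had 83.1%, 63.6% and 79.2%, and NKX2-2, which acts in the pancreas and spinal cord, 75.5%, 41.4% and 48.1%. NKX3-2, a gene of the skeleton, had 68.5%, 51.5% and 51.9%, and NKX6-1, needed by pancreatic beta cells, 46.7%, 17.3% and 17.2%, or 39.1%, 6.23% and 6.89% outside CCGG. NKX2-1, a regulator of thyroid and lung development, had 48.3%, 32.2% and 54.0%, while around its canonical start, 917 bp away, it had 15.7%, 14.3% and 36.3% over the CpGs covered in each line. Its neighbour NKX2-8, 61465 bp away, had 59.2%, 30.7% and 40.3%.

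The Distal-less genes, which act in limbs, jaws and forebrain interneurons, had HCT15 as the highest line in DLX1, DLX2 and DLX3 and PC3 in DLX4 and DLX6. DLX6 had 12.2% in HCT15, 24.0% in DU145 and 57.4% in PC3. DLX4 had 18.0%, 12.9% and 46.5%, and these were the 2 members at least 25 points higher in PC3 than in HCT15. DLX6 had 0, 1, 1 and 1 fragments in HCT15, 0, 0, 0 and 2 in DU145 and 1, 0, 5 and 6 in PC3, in the order of kits used above. It was called lower in HCT15 than in PC3 (log2 fold −2.89, SE 0.75, adjusted p = 0.00167), a call lost with all 15 libraries, with windows of 2000 bp and with limma. The ratio of pooled CPM was 0.0954 with an interval from 0.0173 to 0.353. DLX3, 26636 bp from DLX4, had the opposite order, with 66.9%, 34.6% and 29.3%. DLX2 had 37.8%, 17.4% and 34.1%.

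The RRBS value and the MBD-seq call differed for DLX5, and for DLX1 the RRBS difference depended on the CpGs used. Over the CpGs that the 3 lines share, DLX1 had the lowest mean, with 9.01% in HCT15, 8.57% in DU145 and 8.44% in PC3 over 14 shared CpGs, and 1.45%, 0.833% and 0.758% at the 12 of them outside CCGG, which are those of the DLX1 stretch above. Over all CpGs covered in each line it was higher, with means of 28.5%, 23.1% and 14.8% over 32, 23 and 41 CpGs of HCT15, DU145 and PC3, or 20.2%, 15.4% and 5.40% outside CCGG. MBD-seq gave 0, 3, 6 and 19 DLX1 fragments in HCT15, 0, 0, 0 and 1 in DU145 and 0 in each of the 4 PC3 libraries. Pooled over the 4 kits, HCT15 was at least 3.56-fold higher than PC3, with the floor set at 3 fragments over the PC3 libraries (adjusted p = 5.53e-04). The call was lost with windows of 2000 bp, at the canonical transcript start and with limma. HCT15 and PC3 share 32 covered CpGs in the DLX1 window, and over these HCT15 was higher by 15.5 points, the direction of the MBD-seq call. Fisher's exact test called 8 of the 32 higher in HCT15 and 0 higher in PC3. DLX5, 19397 bp from DLX6, had 90.9% in HCT15 and 94.97% in PC3 over 5 CpGs each, but 0, 4, 7 and 21 fragments in HCT15 and 0, 0, 0 and 1 in PC3 (log2 fold 3.22, SE 0.86, adjusted p = 0.00285). The call was lost in 5 of 12 alternative fits, among them those without MethylCollector Ultra (adjusted p = 0.122) and without MethylCap (0.0551). The RRBS values of DLX5 rest on 5 of 85 CpGs of the window. In HCT15, DU145 and PC3, MethylMiner gave 17, 5 and 1 fragments for DLX1, 12, 5 and 4 for DLX5 and 8, 1 and 5 for DLX6.

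TLX3, which specifies excitatory neurons of the spinal cord, was the most methylated member on average, with 95.7%, 97.1% and 94.4% in HCT15, DU145 and PC3. The 17 CpGs outside CCGG of its stretch above averaged 93.6%, 98.2% and 88.1%. NKX2-6 had 93.5%, 93.2% and 90.6%, NKX6-3 89.8%, 96.0% and 88.8%, and SIX6, a gene of the retina and pituitary, 90.9%, 88.1% and 83.3%. TLX3 had 8, 24, 32 and 41 fragments in HCT15, 4, 1, 4 and 13 in DU145 and 41, 14, 36 and 9 in PC3, in the order of kits used above, and was not called between any 2 lines. SIX6 had 1, 4, 8 and 21 in HCT15 and 15, 5, 16 and 14 in PC3 and was called lower in HCT15 (log2 fold −1.43, SE 0.47, adjusted p = 0.0160), with RRBS 7.59 points higher in HCT15. Its relatives SIX2, a gene of kidney progenitors, and SIX3, a gene of the forebrain and eye, had 64.0%, 30.9% and 23.2% and 93.8%, 76.2% and 68.5%. The SIX6 call was lost in 6 of 13 alternative fits, among them those without MethylCollector (adjusted p = 0.0718), MethylCollector Ultra (0.0946) or MethylCap (0.0610). MethylMiner gave 9, 4 and 6 SIX6 fragments. TLX1, the relative of TLX3 needed for the spleen, had 92.3%, 72.1% and 64.3%.

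At the other end, DLX1, OTX1, BARX2, MSX2, MSX1 and LHX4 had the lowest means over the CpGs shared by the 3 lines. For DLX1 this rank rests on its 14 shared CpGs. OTX1, a gene of the forebrain, had 0 fragments in each of the 12 libraries of the 4 kits, and its relative OTX2 had 90.7%, 75.4% and 66.7% methylation. Around the canonical start of OTX2, 6214 bp away, the means were 88.1%, 90.0% and 64.3%, over the 16, 13 and 16 CpGs covered in each line. MSX1 and MSX2, which act in teeth and skull, had 9.26%, 20.2% and 9.41% and 11.6%, 11.1% and 14.4%. Outside CCGG they had 0.827%, 13.1% and 0.816% and 2.97%, 2.75% and 5.62%. In MSX1, 12 of 74 CpGs were called higher in DU145 than in each of the other lines. BARX2 had 11.0%, 10.4% and 13.4%, or 2.41%, 2.37% and 5.32% outside CCGG, while BARX1, which acts in the stomach, had 95.7%, 55.6% and 70.9%. BARX1 was called higher in HCT15 than in PC3 by MBD-seq (log2 fold 1.40, SE 0.48, adjusted p = 0.0226). This was lost in 8 of 13 alternative fits, among them those without MethylCollector (adjusted p = 0.100), MethylCollector Ultra (0.111) or MethylCap (0.0786). The ratio of pooled CPM for BARX1 was 1.49, with an interval from counting of 0.91 to 2.53. It was smaller than the fold of the fit, and its interval included equal CPM in HCT15 and PC3. The pooled ratio does not pair libraries by kit, as the fit does. MethylMiner gave 17, 10 and 4 BARX1 fragments. EN1, which acts at the midbrain and in limbs, had its highest value in DU145, with 50.03%, 63.9% and 26.8%. EN2 had 36.5%, 33.9% and 22.2%, and EMX1, a gene of the cerebral cortex, 50.8%, 17.1% and 34.7%. Around the canonical start of EMX1, 1259 bp away, the values were 37.8%, 31.4% and 18.4%, with DU145 above PC3. These are over the 83, 89 and 118 CpGs covered in each line, so the sets of CpGs differ.

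Over the 12 libraries of the 4 kits, 47 of the 53 promoters had at least 10 fragments and were tested. LHX2, LHX8, OTX1, MSX1, MSX2 and BARX2 were not. HCT15 had the most fragments in 3 of these kits, so that a promoter often passed the filter through the line in which it was high, and counts over the tested members are descriptions. The 4 captures of a line share its DNA, and p-values measure the spread between captures alone. Between HCT15 and DU145, 1 member was called higher in HCT15 and 0 in DU145 (11 of 47 at an unadjusted p under 0.05), beside 0.538% and 0.363% of the 7999 promoters tested. The share of all promoters at the unadjusted threshold was not computed. Between HCT15 and PC3, 10 were called higher in HCT15 and 2 in PC3, beside 15.5% and 2.64%. Between DU145 and PC3, 2 were called higher in DU145 and 0 in PC3, beside 1.4% and 0.238%. This direction depended on the scaling. With DESeq2, 1 member was called higher in DU145 and 2 in PC3, beside 2 and 85 of all promoters, and with TMM 6 and 10 of all promoters were called. The median log2 fold over the members was 0.63, 0.88 and 0.32 in these pairs, and over all promoters tested 0.47, 0.51 and 0.01. Scaling moved the median over all promoters, with TMM to 0.52, 0.11 and −0.40 and with the size factors of DESeq2 to 1.16, 0.18 and −1.02, and the medians of the members to 1.03, 0.34 and −0.57 and to 1.37, 0.51 and −0.80. Relative to all promoters, the members were thus above 0 in HCT15 against PC3 under the 3 scalings, whereas DU145 against PC3 changed side with TMM.

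**Figure D4:**
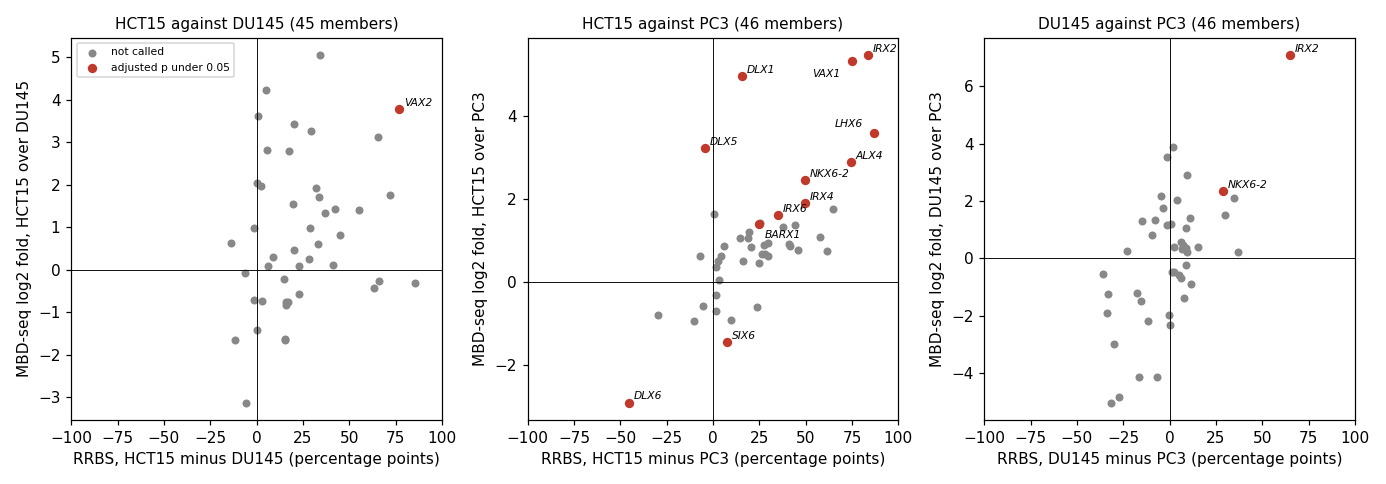
Difference in RRBS promoter methylation (percentage points, x axis) against the MBD-seq log2 fold from edgeR over 4 kits (y axis) for the homeobox members measured by both, 1 panel per pair of lines. Red points have an adjusted p under 0.05. Of 22 members at least 25 points higher in HCT15 than PC3, 22 have a log2 fold above 0 and 7 are called.

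The assays were set side by side for the same pairs. Of 18 members at least 25 points higher in HCT15 than in DU145 by RRBS, 15 had an MBD-seq log2 fold above 0 and 1 was called. The exceptions were LHX6, GSC and PITX3. Of 22 such members for HCT15 over PC3, 22 were above 0 and 7 were called. For DU145 over PC3, 5 of 5 were above 0 and 2 were called, and of 6 members higher in PC3 than in DU145, 0 were above 0 and 0 were called. Of the 31 members that differed by less than 25 points between HCT15 and DU145, 27 were tested and 14 of these were above 0. For HCT15 against PC3, 15 of 22 such members tested were above 0, with 3 called higher in HCT15 and 1 in PC3, and for DU145 against PC3, 21 of 35 were above 0 and 0 were called.

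Capture followed RRBS methylation in 4 of the 5 kits. Of the homeobox CpGs outside CCGG that were at least 80% methylated in HCT15, 38.4% lay under a fragment with MethylMagnet, 68.3% with MethylCollector, 77.5% with MethylCollector Ultra, 82.2% with MethylCap and 64.2% with MethylMiner. Of those at most 20% methylated, 2.12%, 4.67%, 5.52%, 9.77% and 65.4% did. In DU145 the shares at CpGs of at least 80% were 18.1%, 13.7%, 30.5%, 54.4% and 46.2%, and at CpGs of at most 20% they were 1.30%, 2.70%, 2.79%, 9.49% and 49.9%. In PC3 they were 64.5%, 41.3%, 61.3%, 48.6% and 34.1%, and 11.5%, 6.16%, 12.5%, 13.9% and 37.7%. MethylMiner thus covered unmethylated homeobox CpGs about as often as methylated ones in each line. Across promoters, the rank correlation of the RRBS mean outside CCGG with fragments ranged from 0.305 to 0.732 in the other 12 libraries. For MethylMiner it was 0.0851, −0.0615 and −0.00834 in HCT15, DU145 and PC3. The correlations of these lines cover 49, 50 and 50 genes, which share a library. Shares of CpGs under a fragment rise with depth, and MethylMiner was the deepest kit in the 3 lines.

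**Figure D5:**
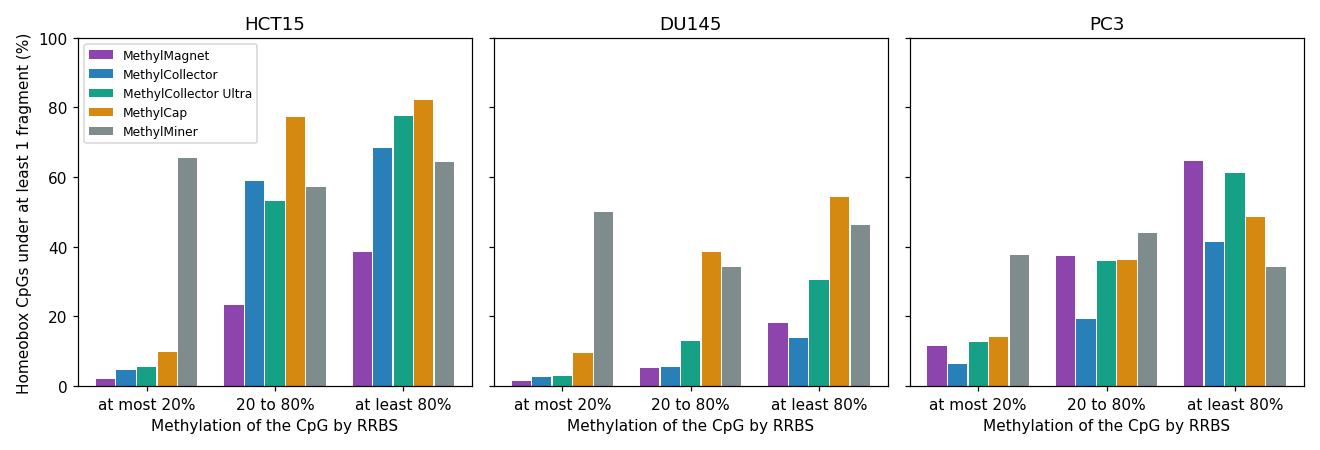
Share of homeobox CpGs outside CCGG under at least 1 MBD-seq fragment (%, y axis) by their RRBS methylation in the same line (x axis), with 1 bar per kit and 1 panel per line. In HCT15 the share at CpGs of at most 20% is 2.12% to 9.77% for 4 kits and 65.4% for MethylMiner.

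The density of fragments in the homeobox promoters differed by kit in the same way. Relative to all protein-coding promoters of the same library, they held 2.61 to 10.3 times as many fragments per promoter in the 12 libraries of the 4 kits. The ribosomal protein promoters held 0.312 to 1.64 times as many. With MethylMiner the homeobox promoters held 1.22 times as many in HCT15, 1.53 in DU145 and 1.25 in PC3. The highest value, in the DU145 MethylMagnet library, rests on 23 fragments.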

How the data were processed

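RRBS of 3 libraries was deposited as read counts at each CpG, methylated and total, in which the strands are added together and no CpG has under 6 reads, as made by a service provider for the authors. The pipeline version is not given in the sources used here. For the 15 MBD-seq libraries, the authors aligned paired reads to hg19 using Bowtie, merged duplicates and deposited unscaled coverage, a signal of fragment depth along the genome. The PC3 RRBS file held no CpG on chromosome 22, where no member lies.

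Promoters were taken from GENCODE on GRCh37 (20163 protein-coding genes, 26 with a duplicated symbol left out). Promoter methylation was the mean over CpGs with at least 10 reads, for at least 5 CpGs, and differences used CpGs covered in both lines. Single CpGs were compared by two-sided Fisher's exact tests with Benjamini-Hochberg adjustment at 0.05. Fragments over a promoter were rebuilt as the depth at its first base plus each rise in depth within it. They were tested with edgeR 4.0.16 (quasi-likelihood) in R 4.3.3, with cell line and kit as terms, total fragments as library size and at least 10 fragments over 12 libraries. Kit pairs the libraries across lines. Alternatives used DESeq2 1.42.0 and limma 3.58.1. Python 3.11.15, numpy 2.4.6, pandas 2.3.3 and scipy 1.17.1 were used for the rest. The scripts were tested on simulated data. Intervals and floors (95%, 3 counts) cover counting error only. Nothing says that kits were run on separate cultures, so p-values measure the spread between captures, which may be technical.

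Members and comparison lists were chosen with earlier results of these data known. The genes described in full were the 10 with the largest range between lines, the 6 with the highest and the 6 with the lowest mean over lines, and up to 10 called in MBD-seq. The other members are named with their values so that each is accounted for. The means outside CCGG and at canonical transcript starts were added after seeing the data. The sequence of 1 stretch is not reported here.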

Additional observations from a re-analysis of the deposited data

Results flagged for a closer look

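In each line, 1 kit stood apart from the other 4 in the share of homeobox CpGs of at most 20% methylation that lay under a fragment. This was MethylMiner, with 65.4% in HCT15, 49.9% in DU145 and 37.7% in PC3. The rank correlation of promoter methylation outside CCGG with fragments also stood apart for MethylMiner in PC3, at −0.00834. Over the promoters of at most 20% methylation outside CCGG, MethylMiner fragments numbered 132 for HCT15 (11 promoters), 144 for DU145 (20 promoters) and 84 for PC3 (18 promoters). This kit was not used in the tests between lines.

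For some genes, 1 kit lay far from the other 4 of the same line in CPM (fragments scaled to the library's total). In DU145 these were VAX1 with MethylMagnet at 99.6, NKX6-2 with MethylMagnet at 199.2, LHX6 with MethylCollector at 33.8, IRX4 with MethylCollector at 67.5 and DLX6 with MethylCap at 2.43. In PC3 they were NKX6-2 with MethylMagnet at 37.2, DLX1 with MethylMiner at 0.478 and LHX6 with MethylMiner at 4.30. In HCT15 it was ALX4 with MethylCollector at 67.8. The DU145 values rest on 1 or 2 fragments each. The limit used was the 95% critical value of Dixon's test. Its nominal rate of about 1 in 20 groups by chance assumes normal values. CPM values from so few fragments are not normal, so the rate that applies here is not known.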

How the results depend on the processing

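The medians of promoter methylation stayed within the 95% interval of the main median, taken over members, under each alternative run. These intervals are wide, at 59.2% to 90.9% in HCT15, 25.4% to 50.4% in DU145 and 29.6% to 49.7% in PC3. Staying within them is therefore a weak check. With windows of 500 bp, the PC3 median was 31.3% against 41.1% in the main run. Outside CCGG, the DU145 median was 30.5% against 38.0%. Of 108 values recomputed for the main counts and medians, 78 kept their size and 30 moved, and the cause was not tested. For the medians, size was kept when the value stayed within those wide intervals. For the counts, size is the total in both directions, so a count could keep its size while its direction changed. With a threshold of 40 percentage points, 10 members differed between HCT15 and DU145, 14 between HCT15 and PC3 and 1 between DU145 and PC3, and with windows of 2000 bp, 7 differed between DU145 and PC3. Shares of all promoters under these settings were not computed. With windows of 500 bp, which hold fewer CpGs, Fisher's exact test called 498 of 1450, 611 of 1502 and 502 of 1522 CpGs in these pairs. Over all CpGs, 16.5%, 16.5% and 18.7% were called. In MBD-seq, HCT15 against DU145 had 0 members called by edgeR with all 15 libraries, TMM, no filter, no replicate block or 2000 bp, where 8, 9, 11, 10 and 9 members had an unadjusted p under 0.05. These fits tested 17429, 7999, 17593, 7999 and 12945 promoters. They called 0, 15, 8, 0 and 50 promoters higher in HCT15 and 3, 7, 21, 7 and 34 higher in DU145. Shares of all promoters at the unadjusted threshold were not computed. With limma, this pair had 6 of 47 members called (5 higher in HCT15 and 1 in DU145), beside 858 and 11 of 7999 promoters. The share of members higher in HCT15 was thus near that of all promoters. When a kit was left out, 0 to 1 members were called. Over all promoters, 0 to 12 were then called higher in HCT15 and 0 to 21 in DU145. At the canonical transcript start, an alternative added after seeing the data, this pair had 3 (2 higher in HCT15 and 1 in DU145). Of all 7890 promoters, 67 and 38 were called. With windows of 500 bp, 1 member was called, higher in DU145, whereas the 1 call of the main fit was higher in HCT15. Of the 4979 promoters tested with these windows, 1 was called higher in HCT15 and 16 in DU145. HCT15 against PC3 had 4 with all 15 libraries, 3 with DESeq2, 7 with no replicate block, 2 with limma and 7 to 12 when a kit was left out. With all kits, these fits tested 17429, 3192, 7999 and 7999 promoters. They called 319, 153, 763 and 407 promoters higher in HCT15 and 101, 71, 111 and 28 higher in PC3. When a kit was left out, 576 to 995 promoters were called higher in HCT15 and 60 to 191 in PC3. DU145 against PC3 had 1 with all 15 libraries, TMM, no filter, no replicate block or limma, and 1 to 2 when a kit was left out. With all kits, these fits tested 17429, 7999, 17593, 7999 and 7999 promoters. They called 36, 6, 62, 5 and 4 promoters higher in DU145 and 5, 10, 5, 0 and 0 higher in PC3. When a kit was left out, 7 to 74 promoters were called higher in DU145 and 0 to 12 in PC3. Without the block by kit, VAX2, NKX6-2 in both pairs, IRX4, IRX6, SIX6 and BARX1 were no longer called. Of 189 recomputed differences of called members, 119 kept their call, 70 lost it and 0 changed direction. IRX2 in both pairs and VAX1 kept theirs in 13 of 13 fits. The shallow DU145 libraries limit each comparison with that line.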
